A study of Mus musculus with 16 samples.

Results

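The 10 genes described here are 6 matrix metalloproteinases (Mmp2, Mmp3, Mmp9, Mmp11, Mmp14 and Mmp15) and all 4 tissue inhibitors of metalloproteinases (Timp1, Timp2, Timp3 and Timp4). They were taken by symbol from a table of 24982 gene entries, and all 10 were found and passed the filter on low counts. They were followed in 16 libraries of total RNA from the left ventricle, 1 per mouse. The mice were of the C57BL/6 strain, and none of the sources used here gives their ages. All of them received tamoxifen injections over 5 days and, after an interval of 2 weeks, angiotensin II (AngII, a hormone that raises blood pressure and loads the heart) from an osmotic pump for 8 weeks. The first genotype, Tln2-null, had 8 mice. The second, Tln2-null; Tln1-specific CF knockout, called knockout here, also had 8 mice and, by its label, lacked Tln1 in cardiac fibroblasts (CF) as well. Each genotype had 4 males and 4 females. Both genotypes are labelled Tln2-null and both received tamoxifen and AngII, so the labels set mice with and without the fibroblast deletion of Tln1 against each other under load, and untreated or wild-type hearts were not analysed here. The recombinase line that made the deletion is not named in the labels.

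Matrix metalloproteinases are zinc-dependent enzymes that cut collagens, proteoglycans and other proteins of the extracellular matrix. Most are made as inactive precursors that need a second protease, often plasmin, furin or another metalloproteinase, to remove a propeptide. TIMPs bind the active site and block it, and TIMP2 has a further role, since it bridges the membrane enzyme MMP14 to the precursor of MMP2 so that this precursor is activated at the cell surface. In the heart, fibroblasts are a main source of these genes, while MMP9 is carried by neutrophils and macrophages, and TIMP4 is known for its high level in heart muscle. Transcript counts say nothing of how much of each enzyme is active.

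The stretch of 250 bases before the start of transcription is shown for 4 members. Mmp3 and Timp1 had the largest differences in level between genotypes, and Timp3 and Timp4 varied together from mouse to mouse more closely than any other pair of members. The sequences are those of RefSeq (GRCm38.p6), written 5′ to 3′ on the strand of the gene. Of the 10 members, 8 had an entry and Mmp2 and Mmp9 had none. Capitals mark exact matches, on either strand, to the AP-1 site TGANTCA, a variant of it (TGANTAA), the TATA box TATAAA or the GC box GGGCGG.
Mmp3 (chr9:7445572-7445821, plus strand): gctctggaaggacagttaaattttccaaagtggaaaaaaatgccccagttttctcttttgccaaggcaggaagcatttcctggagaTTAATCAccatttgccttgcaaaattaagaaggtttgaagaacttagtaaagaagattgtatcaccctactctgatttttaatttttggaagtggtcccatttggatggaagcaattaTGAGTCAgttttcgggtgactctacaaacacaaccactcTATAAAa
Timp1 (chrX:20869916-20870165, plus strand): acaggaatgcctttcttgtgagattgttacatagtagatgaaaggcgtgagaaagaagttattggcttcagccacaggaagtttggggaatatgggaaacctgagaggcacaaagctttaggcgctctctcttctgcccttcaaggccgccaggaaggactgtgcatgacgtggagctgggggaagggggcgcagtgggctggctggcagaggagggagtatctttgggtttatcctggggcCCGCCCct
Timp3 (chr10:86300162-86300411, plus strand): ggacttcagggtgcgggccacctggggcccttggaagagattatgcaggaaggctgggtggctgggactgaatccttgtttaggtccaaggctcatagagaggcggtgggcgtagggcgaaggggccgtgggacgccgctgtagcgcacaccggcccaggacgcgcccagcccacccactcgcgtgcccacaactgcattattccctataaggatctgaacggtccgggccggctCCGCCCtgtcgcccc
Timp4 (chr6:115252206-115252455, minus strand): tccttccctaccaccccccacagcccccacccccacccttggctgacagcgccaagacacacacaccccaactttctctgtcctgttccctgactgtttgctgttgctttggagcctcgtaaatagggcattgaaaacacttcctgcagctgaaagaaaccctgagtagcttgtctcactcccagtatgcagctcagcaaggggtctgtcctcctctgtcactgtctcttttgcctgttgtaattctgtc
Motifs were searched in these bases and the next 50, a window of 300 bases. Mmp3 was the member with both an AP-1 match, TGAGTCA at position -46 from the start, and a TATA box, at -7. It also had a match to the AP-1 variant at -164 on the reverse strand. Over 32851 RefSeq windows of the same length, 7.81% held the AP-1 site, 10.6% the variant and 13.6% the TATA box. Timp1 held the variant, as TGAGTAA, at position 27 after the start and a GC box at -8. GC boxes, which 35.7% of all windows held, were found in Mmp11 (4 matches), Mmp14 (at -19 and -13), Mmp15, Timp2 (at -37) and Timp3 (2 matches), and Timp4 held none of the 4 motifs. The GC content was 40% in Mmp3, 55.0% in Timp1, 67.0% in Timp3 and 53.3% in Timp4. These are matches of letters, and nothing was measured at these sites.

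The genes lie apart in the genome, except that Mmp2 (chromosome 8, 92827291 to 92853420) and Mmp15 (chromosome 8, 95352268 to 95375080) share a chromosome, as do Mmp11 (chromosome 10, 75923222 to 75936496) and Timp3 (chromosome 10, 86300372 to 86349506), all in GRCm38. Timp1 lies on the X chromosome (20870166 to 20874735) inside Syn1, on the opposite strand and with 0 shared exon bases. Timp3 and Syn3 share 1733 exon bases on opposite strands, Timp4 and Syn2 share 90, and Mmp11 and Chchd10 share 155. The synapsin genes were low, with a mean of 0.382 CPM (counts per 1000000 counts of the library) for Syn1, 0.708 CPM for Syn3 and 3.48 CPM for Syn2. Chchd10, a mitochondrial protein gene, had a mean of 619.6 CPM beside 9.79 CPM for Mmp11. None of the sources used here says whether the counting used the strand, so the Mmp11 values may hold reads of Chchd10.

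Library totals ran from 11161766 to 19221673 counts, and a count of 3, taken as the floor, corresponded to between 0.151 and 0.268 CPM. This floor covers counting error only, while the 95% intervals given further on come from edgeR and include the spread between mice. Tln1 had 289.0 ± 20.7 CPM in Tln2-null hearts and 273.6 ± 31.3 CPM in knockout hearts (SD, n = 8 each), and Tln2 66.8 ± 7.25 and 67.1 ± 2.32 CPM. Tln2 transcript was thus present in every library labelled Tln2-null, at 55.6 CPM or more, and counts over whole genes check neither a deletion of some exons of Tln2 nor one of Tln1 in 1 cell type. Some libraries stood apart. Tln2-null replicate 8 and knockout replicate 8 had 27.1 to 28.4 CPM of the clock gene Arntl against 3.66 to 8.44 CPM in the other 14, and Tln2-null replicate 5 had 85.9 CPM of the heat shock gene Hspa1a against at most 8.91 CPM elsewhere. In 4 libraries labelled female (Tln2-null replicate 4 and knockout replicates 3, 5 and 7) Y-linked reads were between 1.1% and 2.85% of the male mean, against at most 0.393% in the other 4. With those females left out, knockout replicate 2 is the only knockout female that remains. For members whose differences moved most without the libraries that stood apart, both values are given.

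To compare levels between genes, CPM were divided by the length of the gene's merged exons in kilobases (kb). In this measure Timp3, the inhibitor that binds to the matrix, was highest, with a mean level of 51.7 ± 9.23 CPM per kb (SD, n = 16). Timp2 followed with 41.4 ± 7.30, then Mmp2, the gelatinase of fibroblasts, with 31.5 ± 8.91, and Mmp15, a membrane-bound metalloproteinase, with 24.5 ± 4.60 CPM per kb. Timp4 had a mean level of 11.7 ± 3.09 and Timp1, the inducible inhibitor, 7.57 ± 3.18 CPM per kb. The membrane enzyme Mmp14 had a level of 4.63 ± 1.31, Mmp11 (stromelysin 3) 3.52 ± 0.363, Mmp3 (stromelysin 1) 1.89 ± 1.11 and Mmp9 (gelatinase B) 0.519 ± 0.352 CPM per kb. Between neighbours in this order the ranges over the 16 mice overlapped, except between Mmp15 and Timp4. Timp3 was nevertheless above Timp2 in 15 of 16 hearts, Timp2 above Mmp2 in 15, and Mmp3 above Mmp9 in 16. Timp3 had a higher level per kb than 93.1% of 13629 genes with a known exon length, Mmp2 than 88.4% and Mmp9 than 12.2%.

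**Figure D1:**
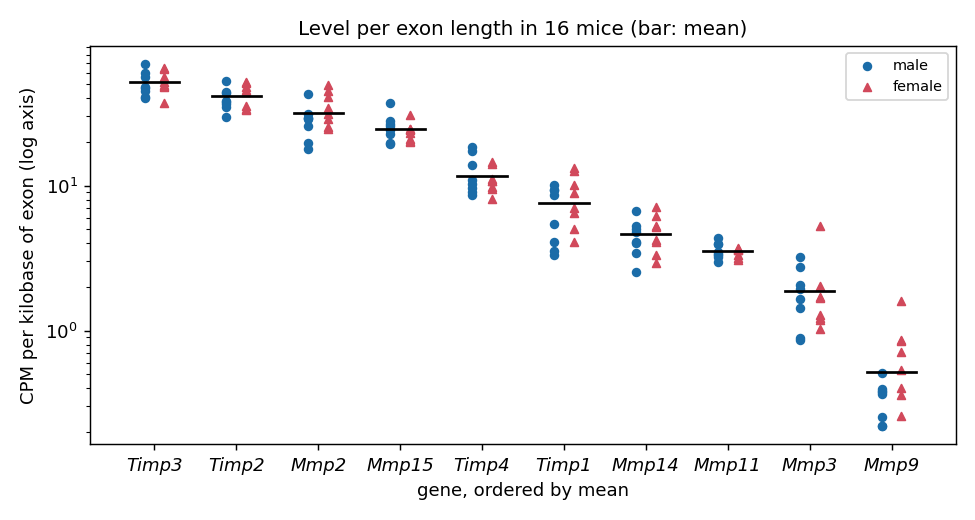
Level of each of the 10 genes in CPM per kb of merged exons (log axis), with 1 point per mouse and the mean; Timp3 is highest with a mean of 51.7 and Mmp9 lowest with 0.519 CPM per kb.

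Mmp2 and Mmp15 together made up most of the metalloproteinase transcripts. Mmp2 was 46.8% ± 8.04 and Mmp15 37.3% ± 7.56 of the summed level per kb of the 6 enzymes (SD, n = 16). Of the inhibitors, Timp3 was 46.0% ± 4.17, Timp2 36.9% ± 3.48, Timp4 10.3% ± 1.69 and Timp1 6.75% ± 2.61 of the summed level. The summed inhibitors exceeded the summed enzymes in all 16 hearts. Their ratio per kb was 1.67 ± 0.306 in Tln2-null hearts, between 1.19 and 2.26, and 1.75 ± 0.288 in knockout hearts, between 1.40 and 2.16. The ratio of Timp1 to Mmp2 was 0.270 ± 0.0689 in Tln2-null and 0.205 ± 0.0459 in knockout hearts, and the ratio of Timp2 to Mmp2 was 1.30 ± 0.129 and 1.42 ± 0.273. The ranges of the genotypes overlapped in all 3 ratios. These ratios are descriptions and carry no test.

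The members differed in how steady they were from mouse to mouse. The coefficient of variation (CV, the SD as a percentage of the mean) over the 16 hearts was 67.9% for Mmp9, 58.7% for Mmp3 and 41.9% for Timp1, against a median of 12.8% over genes. Mmp11 was the steadiest member, with a CV of 10.3%, and 35.6% of genes had a lower one. The other 6 lay between 17.6% (Timp2) and 28.4% (Mmp14). Mmp9 and Mmp3 are also the 2 members with the lowest counts.

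Between genotypes none of the 10 members passed the test, and no other gene did either. In edgeR's quasi-likelihood test with Benjamini-Hochberg adjustment, 0 of the 10 members and 0 of 13775 genes tested (0%) had an adjusted p under 0.05. At an unadjusted p under 0.05 there were 4 members (Mmp3, Timp1, Mmp14 and Timp2), all lower in the knockout, where 5.08% of all genes passed that level and 3.17% did so as lower. DESeq2 called 17 genes and limma-voom 11, and none of these was a member. The median difference of the 10 members, knockout minus Tln2-null, was -0.28 on the log2 scale, against -0.003 over all genes, and 6 of the 10 had a value below 0, as 51.2% of all genes did. The ranges of the genotypes overlapped for all 10 members, and they did not overlap for 0.0436% of genes. The members were chosen with earlier results of these data known, so their share is a description.

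Mmp3, a stromelysin that cuts proteoglycans and activates other metalloproteinase precursors, had the lowest p of the members and stood at place 70 of 13775 genes ordered by p. Its level in Tln2-null hearts had a lowest value of 2.30, a median of 3.55 and a highest value of 9.47 CPM. In knockout hearts the same values were 1.56, 2.16 and 3.74 CPM. All 8 knockout hearts lay below the Tln2-null mean and 5 below the lowest Tln2-null heart, while 3 Tln2-null hearts lay above the highest knockout heart, and the ranges overlapped. The means were 4.46 ± 2.32 and 2.34 ± 0.750 CPM (SD, n = 8 each), a log2 difference of -0.93 ± 0.27 (SE, 95% interval -1.50 to -0.36, edgeR adjusted p = 0.598). Without Tln2-null replicate 8, the heart at 9.47 CPM, the log2 difference was -0.65.

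Timp1, the inhibitor gene that injury and cytokines induce, came next, at place 132. The lowest, median and highest levels were 3.15, 8.59 and 11.8 CPM in Tln2-null hearts and 2.97, 4.63 and 7.92 CPM in knockout hearts. All 8 knockout hearts lay below the Tln2-null mean, and 6 Tln2-null hearts lay above the highest knockout heart, so that the overlap came from 2 Tln2-null hearts, replicates 1 and 8. The means were 8.35 ± 2.73 and 5.10 ± 1.87 CPM, with a log2 difference of -0.70 ± 0.23 (SE, 95% interval -1.19 to -0.22, edgeR adjusted p = 0.755). With the 4 females that held Y-linked reads left out, the log2 difference was -0.46.

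The 3 genes that act together in the activation of MMP2 at the cell surface, Mmp14, Timp2 and Mmp2 itself, all had lower means in the knockout, and none passed the test. Mmp14 had lowest, median and highest levels of 24.5, 30.5 and 42.2 CPM in Tln2-null hearts and of 15.01, 22.1 and 40.1 CPM in knockout hearts. In 6 of 8 knockout hearts Mmp14 was below every Tln2-null heart, and the other two, knockout replicates 2 and 8, were within the Tln2-null range. Its log2 difference was -0.38 ± 0.17 (SE, 95% interval -0.74 to -0.02, edgeR adjusted p = 0.935). That difference was -0.51 without the 2 libraries apart in clock genes, of which knockout replicate 8 is one, and -0.15 when the 4 females with Y-linked reads were left out. Knockout replicate 2 is the only knockout female in that last fit.

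Timp2 had lowest, median and highest levels of 130.2, 175.0 and 206.2 CPM in Tln2-null hearts and of 115.6, 145.5 and 188.0 CPM in knockout hearts. The groups overlapped over most of their range, with 7 of 8 knockout hearts below the Tln2-null mean. The log2 difference of Timp2 was -0.23 ± 0.11 (SE, 95% interval -0.45 to -0.01, edgeR adjusted p = 0.935). Mmp2 had lowest, median and highest levels of 85.7, 110.3 and 151.6 CPM in Tln2-null hearts and of 60.2, 91.9 and 165.8 CPM in knockout hearts. Its highest and its lowest heart were both knockouts, replicate 2 and replicate 6, and 7 of 8 knockout hearts lay below the Tln2-null mean. The log2 difference of Mmp2 was -0.32 ± 0.16 (SE, 95% interval -0.65 to 0.01, edgeR adjusted p = 0.935). With the same 4 females left out it was -0.20, and without knockout replicate 2, the highest heart, it was -0.45.

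Mmp9 was low in every heart, with lowest, median and highest levels of 0.777, 1.61 and 5.66 CPM in Tln2-null hearts and of 0.775, 1.35 and 3.03 CPM in knockout hearts. Its log2 difference was -0.38 ± 0.31 (SE, 95% interval -1.04 to 0.27, edgeR adjusted p = 0.942), -0.09 without Tln2-null replicate 8 and -0.14 with the 4 females that held Y-linked reads left out. The other 4 members had differences near 0. Mmp11, an enzyme that furin activates inside the cell, had 9.52 ± 0.879 CPM in Tln2-null hearts and 10.1 ± 1.11 CPM in knockout hearts (SD, n = 8 each). The membrane enzyme Mmp15 had 129.9 ± 20.8 and 134.6 ± 29.5 CPM. Timp3 had 416.0 ± 83.3 and 426.1 ± 71.6 CPM, and Timp4 69.2 ± 22.9 and 68.5 ± 13.6 CPM. The 95% intervals of the log2 difference ran from -0.10 to 0.25 for Mmp11, from -0.21 to 0.30 for Mmp15, from -0.22 to 0.29 for Timp3 and from -0.35 to 0.36 for Timp4. With the 4 females that held Y-linked reads left out, the log2 difference was 0.15 for Mmp11 and 0.19 for Mmp15, and that of Mmp11 was 0.02 without the 2 libraries apart in clock genes.

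**Figure D2:**
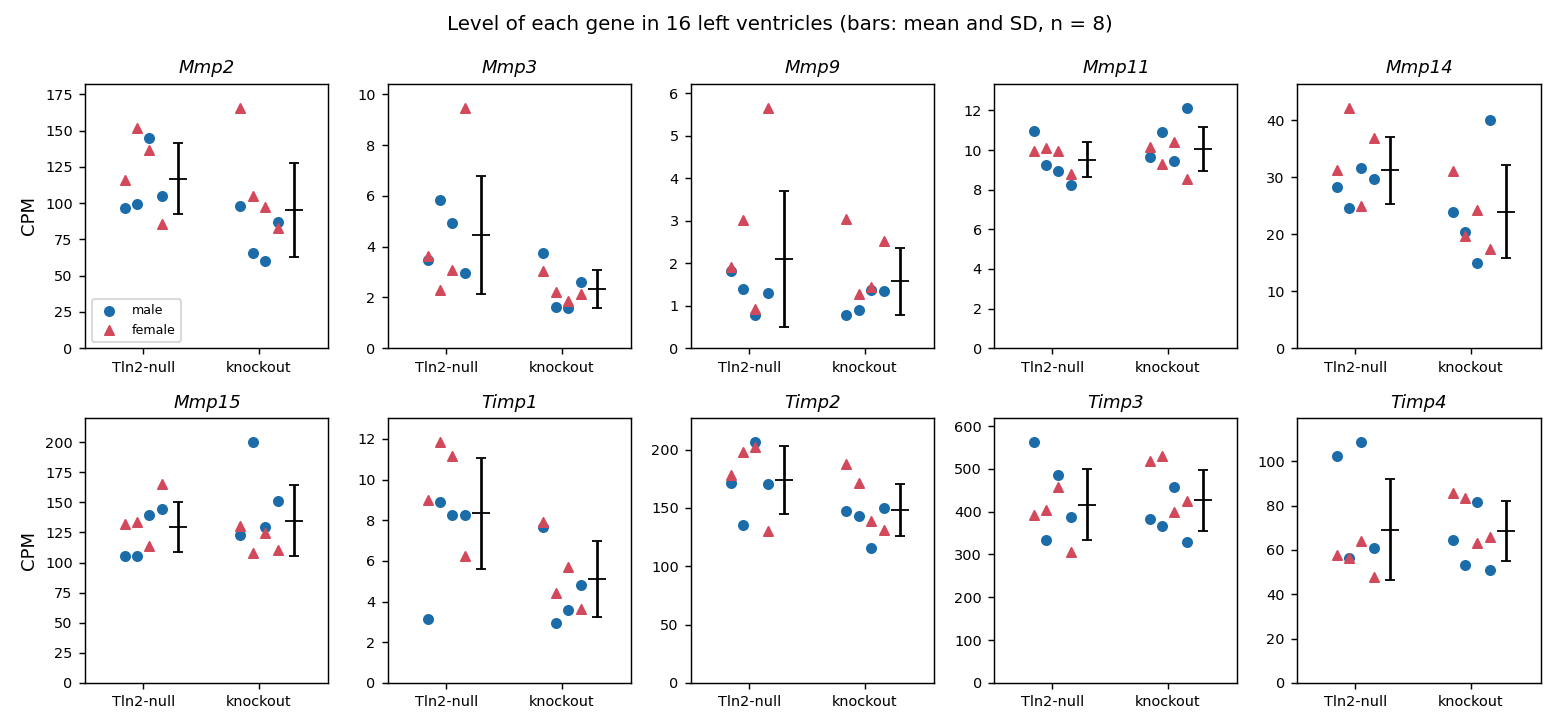
CPM of each of the 10 genes in every mouse, by genotype and with the sexes marked, with 1 point per mouse; the ranges of Tln2-null and knockout hearts overlap for all 10 genes, and Tln2-null replicate 8 at 9.47 CPM is the highest point for Mmp3.

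**Figure D3:**
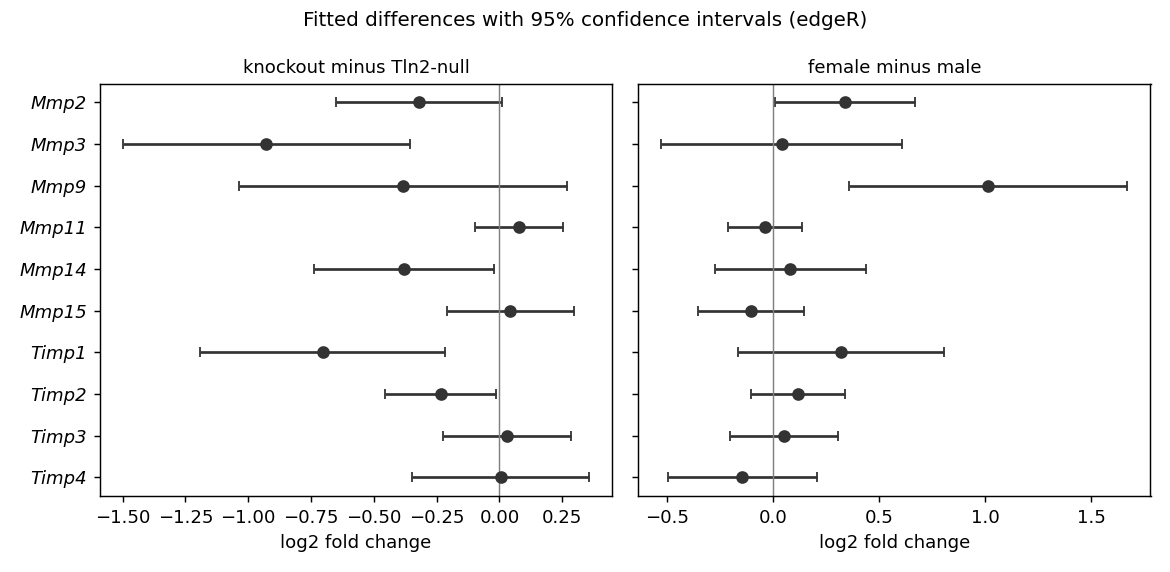
Log2 difference (knockout minus Tln2-null) of each of the 10 genes over all mice, with 95% intervals from edgeR; Mmp3 at -0.93 and Timp1 at -0.70 are farthest from 0.

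In bulk tissue, fewer cells of a type and less RNA per cell cannot be told apart. The sums of the marker lists below overlapped between the genotypes and carry no test. Each sum adds CPM, so abundant markers weigh most in it. The summed level of 13 markers of quiescent fibroblasts was between 2536 and 3592 CPM in Tln2-null hearts and between 2125 and 2962 CPM in knockout hearts, and 11 of the 13 had a lower estimate in the knockout. For 12 markers of activated fibroblasts the sum was between 507.1 and 1256 CPM and between 369.7 and 1143 CPM, and 11 of the 12 had a lower estimate. None of these markers passed the test (edgeR, 0 of 25, with 17 at an unadjusted p under 0.05). Over all genes, 5.08% had such a p and 51.2% a lower estimate. Of the 17, Smoc2 and the activated marker Fap were higher in the knockout (Fap, log2 difference 0.27 ± 0.10 SE, edgeR adjusted p = 0.904). DESeq2 called 2 quiescent markers, Tcf21 (adjusted p = 0.00136), which was lower, and Smoc2 (adjusted p = 0.0247), which was higher, and limma-voom called Tcf21 (adjusted p = 0.019). Lox, which crosslinks collagen, had 18.7 ± 9.73 and 8.61 ± 3.99 CPM, and Comp 33.2 ± 31.0 and 9.23 ± 8.92 CPM (SD, n = 8 each). None of the 25 was at 0. Other cell types differed too. Of 11 ventricular cardiomyocyte markers 10 had a higher estimate in the knockout and 3 an unadjusted p under 0.05, with sums between 60870 and 66430 CPM in Tln2-null hearts (median 63050) and between 59220 and 70230 CPM in knockout hearts (median 67700). Of 10 pericyte and smooth muscle markers 7 had a lower estimate and 5 an unadjusted p under 0.05. Of those 5, Cnn1, Cspg4 and Tagln were lower in the knockout, and Rgs5 and Abcc9 were higher. Rgs5 and Abcc9, with means of 860.0 and 516.0 CPM over the 16 hearts, weighed most in the sum of this list. The sums of these 10 pericyte and smooth muscle markers were between 1797 and 2471 CPM in Tln2-null hearts (median 1959). In knockout hearts they were between 1882 and 2251 CPM (median 2078). No marker of these lists passed the edgeR test, and the part of any of these cell types in the differences of the members was not tested.

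Between the sexes 12 of 13775 genes (0.0871%) had an edgeR adjusted p under 0.05, and none of the 10 members was among them. DESeq2 called 21 genes and limma-voom 12, again with no member. At an unadjusted p under 0.05 there were 2 members, Mmp9 and Mmp2, both higher in females, where 3.69% of all genes passed that level. The ranges of the sexes overlapped for all 10 members, and they did not overlap for 0.109% of genes. Mmp9, an enzyme that neutrophils store in granules, had a lowest level of 0.775, a median of 1.32 and a highest of 1.81 CPM in males, and of 0.915, 2.21 and 5.66 CPM in females. In 5 of 8 females Mmp9 was above every male, and the other 3 lay within the male range. The log2 difference, female minus male, was 1.01 ± 0.31 (SE, 95% interval 0.36 to 1.67, edgeR adjusted p = 0.9998). It was 0.74 without Tln2-null replicate 8 and 1.20 with the 4 females that held Y-linked reads left out. For Mmp2 the means were 94.5 ± 26.1 CPM in males and 117.6 ± 30.8 CPM in females (SD, n = 8 each), with a log2 difference of 0.34 ± 0.16 (SE, edgeR adjusted p = 0.9998) and overlapping ranges. That difference was 0.21 without knockout replicate 2.

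Markers of neutrophils moved with Mmp9. The summed level of 12 neutrophil markers ran from 6.43 to 23.9 CPM in males, with a median of 11.3, and from 7.32 to 78.5 CPM in females, with a median of 29.8. All but Elane, which bone marrow precursors transcribe, were detected in at least 4 libraries, and 5 of the 12 passed the filter on low counts. S100a8 had 7.94 ± 8.91 CPM in Tln2-null hearts and 5.23 ± 4.41 CPM in knockout hearts, and S100a9 10.7 ± 11.97 and 7.87 ± 6.27 CPM (SD, n = 8 each). Over the 16 hearts the correlation of log2 Mmp9 with the summed markers had a Pearson r of 0.85 (permutation p = 4e-05, adjusted p = 0.0008) and a Spearman rho of 0.71 (permutation p = 0.00286, adjusted p = 0.0215), adjusted over 60 relations between members and marker sums. Without the 2 libraries farthest from the median r was 0.75. Within the 8 females r was 0.92 and within the 8 males 0.30, and the part of these cells in the sex difference was not tested.

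Within each sex no member and no other gene passed the edgeR test (0% of 13775 genes in males, in females and for the difference between them). In males Mmp2 and Mmp3 had an unadjusted p under 0.05, against 6.07% of all genes. In females Mmp3, Timp1 and Mmp14 did, against 3.31% of all genes. All of these were lower in the knockout. For the genotype by sex difference Timp4 and Mmp15 had an unadjusted p under 0.05, against 4.27% of all genes.

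Timp4, the inhibitor known for its level in heart muscle, had estimates of opposite sign in the sexes. In males the Tln2-null hearts had 102.3, 56.5, 108.5 and 60.9 CPM (replicates 1, 3, 5 and 7) and the knockout hearts 64.3, 53.2, 81.8 and 51.1 CPM (replicates 1, 4, 6 and 8). In females the Tln2-null hearts had 57.6, 56.3, 63.8 and 47.7 CPM (replicates 2, 4, 6 and 8) and the knockout hearts 85.6, 83.5, 63.0 and 65.7 CPM (replicates 2, 3, 5 and 7). Among males, Tln2-null replicates 1 and 5 lay above every other heart, and replicates 3 and 7 lay within the knockout range. Among females, all 4 knockout hearts lay above 3 of the 4 Tln2-null hearts, and the ranges overlapped through Tln2-null replicate 6. Tln2-null replicate 5 is the heart with high heat shock transcripts. Tln2-null replicate 4 and knockout replicates 3, 5 and 7 are the females that held Y-linked reads. Over both sexes the log2 difference of Timp4 was 0.005, against 0.11 without that replicate 5 and -0.10 without those females. The genotype difference in females minus that in males was 0.79 ± 0.28 on the log2 scale (SE, 95% interval 0.19 to 1.39, edgeR adjusted p = 0.980). Timp3 had an estimate of 0.46 ± 0.22 for the same difference (SE, edgeR adjusted p = 0.980). Mmp15 had an estimate of -0.49 ± 0.21 (SE, edgeR adjusted p = 0.980), with means of 123.5 and 150.9 CPM in Tln2-null hearts and knockout males and 136.2 and 118.3 CPM in females.

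Among the 45 pairs of members, 3 varied together over the 16 hearts by both measures of correlation of log2 CPM, after Benjamini-Hochberg adjustment over the 45. Timp3 and Timp4 had a Pearson r of 0.89 (permutation p = 1e-05, the smallest that 100000 resamples can give, adjusted p = 0.000225) and a Spearman rho of 0.88 (permutation p = 1e-05, adjusted p = 0.00045). Mmp2 and Timp2 had r = 0.87 (permutation p = 1e-05, adjusted p = 0.000225) and rho = 0.86 (permutation p = 5e-05, adjusted p = 0.00113). Mmp2 and Timp1 had r = 0.77 (permutation p = 0.00038, adjusted p = 0.0057) and rho = 0.78 (permutation p = 0.00053, adjusted p = 0.00795). Leaving out the 2 libraries farthest from the median of the first gene gave r = 0.86, 0.84 and 0.78 for these pairs in turn. Within genotype and sex, over deviations from the 4 group means, r was 0.92, 0.85 and 0.75. Without the 2 libraries apart in clock genes r was 0.86 for Timp3 with Timp4 and 0.87 for Mmp2 with Timp2. Which of these 2 pairs is the closer thus depended on the libraries. The 2 inhibitors in these pairs with Mmp2 did not pass with each other (Timp1 and Timp2, r = 0.57, permutation p = 0.0226, adjusted p = 0.203).

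**Figure D4:**
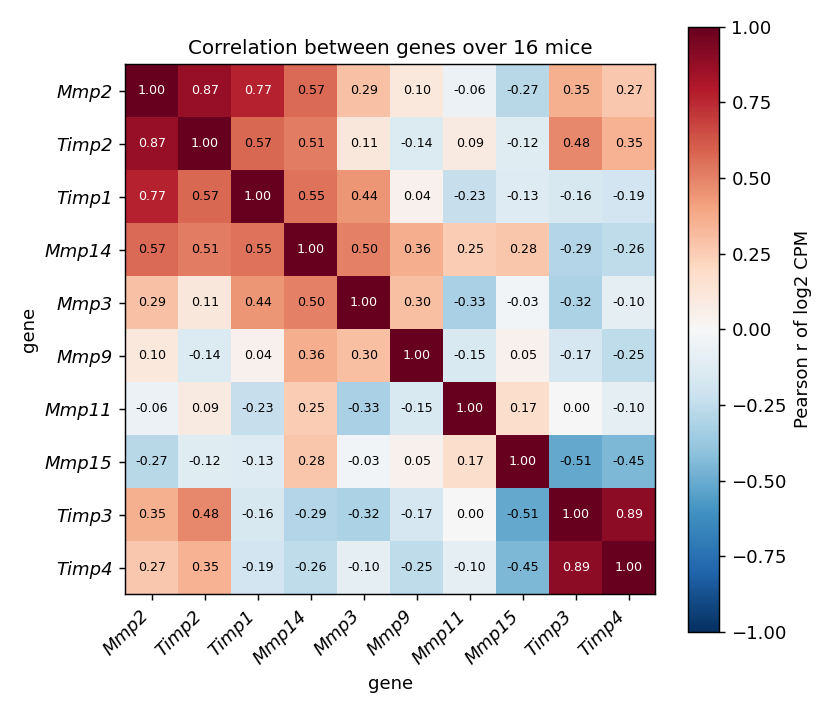
Pearson r of log2 CPM over the 16 mice for each of the 45 pairs of the 10 genes, as a colour scale from -1 to 1; the highest values are those of Timp3 with Timp4 (0.89), Mmp2 with Timp2 (0.87) and Mmp2 with Timp1 (0.77).

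**Figure D5:**
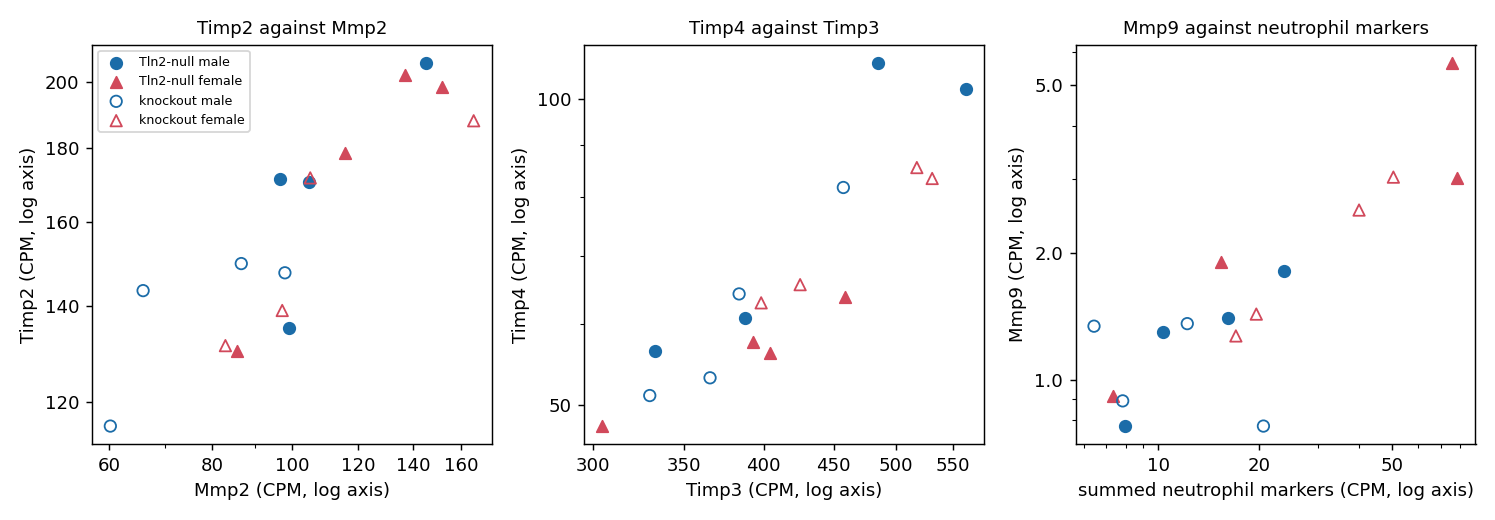
Levels in CPM of correlated pairs of members and of Mmp9 against the summed neutrophil markers (log axes), with 1 point per mouse by genotype and sex; r is 0.89 for Timp3 with Timp4 and 0.85 for Mmp9 with the neutrophil markers.

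Mmp2 and Mmp14 did not pass (r = 0.57, permutation p = 0.0218, adjusted p = 0.203; rho = 0.49, permutation p = 0.0536, adjusted p = 0.186), and their r was 0.81 without the 2 libraries apart in clock genes, in which Mmp14 was 36.9 and 40.1 CPM. No pair had a called negative correlation. The lowest Pearson r was that of Mmp15 with Timp3 (r = -0.51, permutation p = 0.0436, adjusted p = 0.228; rho = -0.53, permutation p = 0.0391, adjusted p = 0.186), and the lowest Spearman rho that of Mmp15 with Timp4 (rho = -0.55, permutation p = 0.0292, adjusted p = 0.186; r = -0.45, permutation p = 0.0818, adjusted p = 0.330).

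Mmp2 and Timp2 also varied with the summed fibroblast markers and with the summed macrophage markers, none of which is a member. Each sum weighs its abundant markers most. These were above all Gsn (mean 1222 CPM) among the quiescent and Acta2 (mean 261.1 CPM) among the activated fibroblast markers. For Mmp2 with the summed markers of activated fibroblasts r was 0.88 (permutation p = 1e-05, adjusted p = 0.0006) and rho 0.83 (permutation p = 0.00014, adjusted p = 0.0042), with r = 0.84 without the 2 farthest libraries and 0.88 within genotype and sex. For Timp2 with the summed markers of quiescent fibroblasts r was 0.88 (permutation p = 3e-05, adjusted p = 0.0008) and rho 0.85 (permutation p = 6e-05, adjusted p = 0.0036), with r = 0.90 without the 2 farthest and 0.84 within genotype and sex. Timp1 with the activated markers had r = 0.78 (permutation p = 0.00055, adjusted p = 0.00413) and rho = 0.74 (permutation p = 0.00157, adjusted p = 0.0157), with 0.69 and 0.65 under the same checks. Mmp14 with the activated markers had r = 0.68 (permutation p = 0.0042, adjusted p = 0.0229) and rho = 0.74 (permutation p = 0.00137, adjusted p = 0.0157), with 0.69 and 0.57. Mmp2 with the summed macrophage markers had r = 0.81 (permutation p = 0.00033, adjusted p = 0.00283), with 0.68 and 0.77. Its rho with them was 0.68 (permutation p = 0.0054, adjusted p = 0.0324). Timp2 with the macrophage markers had r = 0.74 (permutation p = 0.00094, adjusted p = 0.00627), with 0.58 and 0.74. Its rho was 0.61 (permutation p = 0.01315, adjusted p = 0.0641) and did not pass. Mmp2 and the summed ventricular cardiomyocyte markers had r = -0.80 (permutation p = 0.00028, adjusted p = 0.0028) and rho = -0.73 (permutation p = 0.00184, adjusted p = 0.0158), with -0.67 and -0.73. All CPM of a library share 1 total, so abundant muscle transcripts and the rest are not independent.

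The genes most like each member were ranked by the r of deviations from the 4 genotype and sex means over 16 libraries, among about 12009 genes of 2 CPM or more, as a description. The highest of so many r over 16 libraries can be large for unrelated genes as well. Nearest to Mmp2 was Col1a2, a chain of type I collagen (r = 0.96), followed by Sertad4 (0.94). Nearest to Timp2 were Fbln1, a basement membrane glycoprotein gene (0.94), and Gas1 (0.92). Mmp14 was most like Dab2, an endocytic adaptor gene (0.90), and Stx11 (0.87), and Timp1 was most like Traf7 (0.87) and Dio2, which activates thyroid hormone (0.86). For Mmp3 the nearest were Otud1 (0.85) and the immediate early gene Ier5 (0.83). Timp3 and Timp4 were each other's first or second nearest gene (0.92), beside Pld1 for Timp3 (0.92). The nearest to Mmp15 were Miga2 (0.93) and Rpn1 (0.91), to Mmp9 Kif2a (0.89) and Blzf1 (0.87), and to Mmp11 Ston1 (0.80) and Gm14005 (0.79). With the group means left in, r was 0.95 for Mmp2 with Col1a2, 0.53 for Mmp9 with Blzf1 and 0.46 for Mmp3 with Ier5.

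In the rest of the MMP family the highest mean was 9.62 CPM, that of Mmp23. Of 17 further Mmp genes, 4 (Mmp1a, Mmp1b, Mmp7 and Mmp20) had 0 counts in every library and 8 passed the filter. None of the 8 passed the genotype test, 2 had an unadjusted p under 0.05, 7 had estimates below 0, and the median log2 difference was -0.24. Over all genes, 5.08% had such a p and 51.2% an estimate below 0. Mmp23 had 10.6 ± 1.87 CPM in Tln2-null hearts and 8.64 ± 1.31 CPM in knockout hearts, a log2 difference of -0.30 ± 0.12 (SE, edgeR adjusted p = 0.916). Mmp19 had 5.56 ± 1.03 and 4.51 ± 1.16 CPM, Mmp17 4.22 ± 1.09 and 3.70 ± 0.804 CPM, and Mmp28 9.26 ± 1.38 and 8.78 ± 1.42 CPM (SD, n = 8 each).

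Of the genes that activate, inhibit or clear metalloproteinases, 23 were tested and none passed between genotypes. Of these, 2 had an unadjusted p under 0.05 (Plau, higher, and Lrp1, lower), against 5.08% of all genes. Estimates below 0 were found for 17, against 51.2% of all genes, and the median of the 23 was -0.12. Plau, which encodes urokinase, the protease that turns plasminogen into plasmin, had 8.54 ± 1.82 CPM in Tln2-null hearts and 13.6 ± 2.61 CPM in knockout hearts, with all 8 knockout hearts above the Tln2-null mean (log2 difference 0.67 ± 0.13 SE, edgeR adjusted p = 0.158). DESeq2 (adjusted p = 0.00154) and limma-voom (adjusted p = 0.0453) called Plau, and they called no other gene of this list. Nor did they call any gene of the MMP family, the substrates, the ADAM list or the cytokines, receptors and factors described below. Lrp1, the receptor that takes up complexes of proteases and inhibitors, had 223.7 ± 35.7 and 176.5 ± 47.4 CPM (log2 difference -0.35 ± 0.14 SE, edgeR adjusted p = 0.912). The membrane inhibitor Reck had 13.9 ± 2.68 and 11.7 ± 2.02 CPM, and Thbs2, whose protein binds MMP2 for uptake, 39.3 ± 9.18 and 32.9 ± 4.33 CPM.

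Of 32 tested substrates in the matrix, none passed and 31 had estimates below 0 in the knockout, with a median log2 difference of -0.28. An unadjusted p under 0.05 was found for 11, with Lama2 among them. Over all genes, 51.2% had an estimate below 0 and 5.08% such a p. Fmod, a collagen-binding proteoglycan gene, had 18.8 ± 19.01 CPM in Tln2-null hearts and 4.60 ± 5.08 CPM in knockout hearts (log2 difference -2.05 ± 0.67 SE, edgeR adjusted p = 0.755). Col1a1 had 146.2 ± 39.5 and 97.9 ± 40.1 CPM, and Bgn, the gene of biglycan, 465.1 ± 123.6 and 357.9 ± 81.6 CPM. The exception was Lama2, the laminin chain of muscle basement membrane, with 206.3 ± 10.8 and 224.3 ± 10.6 CPM (log2 difference 0.12 ± 0.05 SE, edgeR adjusted p = 0.904). A further list held ADAM genes, of which TIMP3 can inhibit some, and partners of ADAM proteins. Among its 12 tested genes, 4 had estimates below 0, 8 above, 1 had an unadjusted p under 0.05, and the median was 0.01. Rhbdf1, a partner of ADAM17 and the gene with that p, had 45.8 ± 2.91 and 39.1 ± 5.59 CPM (log2 difference -0.23 ± 0.08 SE, edgeR adjusted p = 0.804). Adam17 had 58.4 ± 6.67 and 61.9 ± 6.20 CPM, Rhbdf2 18.8 ± 1.91 and 17.7 ± 3.18 CPM, and Adam15 99.4 ± 14.2 and 94.8 ± 27.1 CPM.

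Of 25 tested genes of cytokines, cytokine receptors and transcription factors that are known to act on MMP and TIMP genes, none passed, and the median was -0.07. Estimates below 0 were found for 17, against 51.2% of all genes, and an unadjusted p under 0.05 for 3, against 5.08%. Tgfb3 had 35.3 ± 6.80 CPM in Tln2-null hearts and 25.7 ± 5.62 CPM in knockout hearts (log2 difference -0.45 ± 0.14 SE, edgeR adjusted p = 0.664), and Tgfb2 22.4 ± 5.21 and 17.2 ± 2.35 CPM (-0.39 ± 0.13 SE, edgeR adjusted p = 0.755). The AP-1 family gene Jund had 123.8 ± 22.0 and 102.3 ± 24.6 CPM. The stress gene Atf3 had 89.6 CPM in Tln2-null replicate 5 and between 2.67 and 25.1 CPM in the other 15 hearts.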

How the data were processed

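Per the labels' protocols, dissected left ventricles were homogenized in TRIzol, RNA was purified on columns, and a directional kit served for the libraries. The submitters' processing notes name DRAGEN, DESeq2 and mm10 without a role or version. Neither the annotation nor the strand setting is given in the sources used here. The authors deposited whole counts per gene symbol, 1 column per mouse, and a normalized table that was not used here. Groups and sexes came from the labels, and replicate numbers were assigned in the order of the records.

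The test was that of edgeR 4.0.16 (R 4.3.3) on the counts (filterByExpr by genotype and sex, TMM, quasi-likelihood F test, Benjamini-Hochberg over 13775 genes). Genotype and sex were terms of 1 model, and a model with 4 group means gave the tests within a sex and their difference. SEs were worked back from the test. CPM are counts per 1000000 of the tested genes' total after TMM scaling. In simulated data of the genotype comparison (13775 genes), 88% of 100 genes changed by a log2 of 1 and 97% of 100 changed by 2 were recovered, and 6 unchanged genes were called. The changed genes were drawn at random, and 191 genes were called there against 0 in the real data. These shares are therefore not those for the members. Mmp3 and Timp1, for example, had a CV of 58.7% and 41.9%, against a median of 12.8% over genes. Exon lengths are from GENCODE M21 (GRCm38) and promoters from RefSeq. Correlations used scipy 1.17.1 with 100000 resamples.

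Alternatives were DESeq2's size factors, no filter, a stricter filter (1 CPM in 8 libraries), DESeq2 1.42.0, limma-voom (limma 3.58.1), the title number as a covariate, a left-out covariate, and leaving out each library or the libraries that stood apart. Leaving out the females with Y-linked reads was chosen after seeing the data. Named genes were the members, the 2 genes most like each, up to 4 genes of lowest p at a mean of 2 CPM or more from each described list, and genes that overlap a member. One item under this rule is not reported here, and marker lists are given mainly as counts and sums. Genes named as at 0, Elane, Fap, Rgs5, Gsn, Acta2 and the genes of the library checks were named after their values were seen. The members and lists were chosen with earlier results of these data known.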

Additional observations from a re-analysis of the deposited data

Results flagged for a closer look

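Of 80 groups of mice examined (10 genes in 8 groups by genotype, sex or both), 9 had 1 heart far from the others by Dixon's criterion. For normally distributed values, chance gives this in about 1 group in 20. The groups share hearts and the CPM were not transformed, so the 9 cannot be read as an excess. Tln2-null replicate 8, a female and one of the hearts apart in clock genes, accounted for 5 of the 9. In this heart Mmp3 was 9.47 CPM, with the next female at 3.64 CPM. Its Mmp9 was 5.66 CPM, the highest among Tln2-null hearts (next 3.01 CPM) and among females (next 3.03 CPM). Its Mmp15 was 165.2 CPM, with the next female at 133.5 CPM, and its Mmp11 was 8.77 CPM, below the other Tln2-null females, the nearest of which had 9.95 CPM.

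The other 4 came from different hearts. Knockout replicate 2 had 165.8 CPM of Mmp2, with the next knockout heart at 105.1 CPM. Tln2-null replicate 5, the heart with high heat shock transcripts, had 145.1 CPM of Mmp2, with the next Tln2-null male at 104.7 CPM. Knockout replicate 4 had 199.8 CPM of Mmp15, with the next knockout heart at 151.2 CPM. Tln2-null replicate 1 had 3.15 CPM of Timp1, below the other Tln2-null males, of which the nearest had 8.27 CPM.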

How the results depend on the processing

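No member passed the test in any of the 5 comparisons (genotype, sex, genotype in males, genotype in females and their difference) under any alternative run, so these counts stayed at 0. Of the genotype differences, those of Mmp2, Mmp3, Mmp9, Mmp14, Timp1 and Timp2 stayed below 0 in all 26 alternatives, and that of Mmp11 above 0. Reversals touched values near 0. Between genotypes these were Mmp15 with limma-voom (-0.0091) and with the title number (-0.0109), Timp3 with the females that held Y-linked reads left out (-0.02), and Timp4 without those females (-0.0958) and with no sex term (-0.0141). Leaving out 1 library at a time, the log2 differences ran from -0.0473 to 0.11 for Mmp15, from -0.0349 to 0.11 for Timp3 and from -0.061 to 0.11 for Timp4. Between sexes the reversals were Mmp3 with limma-voom (-0.16) and without the 2 libraries apart in clock genes (-0.27), Mmp11 under the same settings (0.0133 and 0.0193) and without the same females (0.0047), and Mmp15 without those females (0.0362). With 1 library left out the sex differences ran from -0.27 to 0.17 for Mmp3 and from -0.0715 to 0.0017 for Mmp11. The cause was not tested. Adjusted p between genotypes ran from 0.144 (DESeq2) to 1 for Mmp3 and from 0.285 (limma-voom) to 1 for Timp1. Without dividing by length the ratio of summed Timp to summed Mmp was 2.30 in Tln2-null and 2.47 in knockout hearts, and that of Timp1 to Mmp2 0.0711 and 0.0539. The count of 3 called pairs held in every alternative run. DESeq2's size factors left the median of all genes at -0.003. No paired analysis was possible because replicate numbers were assigned in the order of the records and the numbers in the titles are unique to a mouse. Depth limits Mmp9 and Mmp3 most, since they had 483 and 900 counts in all over the 16 libraries.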

Other observations

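Mmp8, the neutrophil collagenase, was no member but, like Mmp9, had a higher estimate in females. It had a mean of 0.963 CPM over the 16 hearts, between 0.119 and 3.52 CPM, and its log2 difference, female minus male, was 1.597 ± 0.531 (SE, 95% interval 0.48 to 2.71, edgeR adjusted p = 0.9998). It did not pass the test, and it was named after its value was seen. Mmp13, a collagenase of connective tissue cells, had an estimate of -0.62 ± 0.34 for the same difference (SE, edgeR adjusted p = 0.9998).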
